A study of Gallus gallus with 8 samples.

Results

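Genes of the mitotic spindle, the kinetochore and the condensin complexes were followed through the embryonic day 13 chicken lens. A locus was included when one of its gene names matched a fixed set of symbols and symbol families (CENP, BUB, AURK, NCAP, CDCA and HAUS genes, MAD2L1, TTK, PLK1, PLK4, the NDC80 complex, mitotic kinesins, SMC2, SMC4, SKA proteins, CDC20, MKI67 and others), which gave 74 loci of 16906. The match used no expression value, but the symbols were chosen with earlier results of these data known. Lenses without genetic or drug treatment were microdissected into 4 regions that follow the path of differentiation, namely the epithelium of the lens center (EC) and of its equator (EQ) and the fibers of the cortex (FP) and of the core (FC), and material of 100 lenses was pooled for each of 2 libraries per region, 8 libraries in all. A pool of dissected tissue averages over all cells in the cut, so that fewer dividing cells and less mitotic RNA per cell cannot be told apart in these values. The authors' table gives 1 FPKM (reads scaled to exon length and to library size) per locus and region, pooled over the 2 libraries, with a 95% interval, and so no difference below was tested between libraries.

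In a dividing cell the centromere is marked by a special histone on which the inner kinetochore proteins assemble. The outer kinetochore then grips spindle microtubules, and the spindle assembly checkpoint holds back the anaphase-promoting complex until every chromosome is attached. Condensins compact the chromosomes, Aurora and Polo kinases order the steps, and motors and bundling proteins build the spindle and separate the daughter cells. In the lens, division is confined to the epithelium, and cells that become fibers leave the cell cycle, elongate and later lose their nuclei.

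Most of the mitotic loci had their highest level in the central epithelium and stepwise lower levels toward the fibers. The highest of the 4 FPKM values lay in EC for 64 of 74 loci, with another 4 highest in EQ, 1 in FP and 5 in FC, whereas over all loci above 0 these shares were 27.4% for EC, 31.2% for EQ, 17.3% for FP and 24% for FC. The order EC above EQ above FP held at 62 of the 74, against 20.4% of all loci above 0. The median member level was 8.32 FPKM in EC, 4.03 FPKM in EQ, 1.39 FPKM in FP and 1.12 FPKM in FC. Over all loci above 0 in a region, the median was 3.99, 4.45, 3.44 and 3.55 FPKM in the same order. Members at 1 FPKM or more numbered 73, 69, 48 and 41 of 74, against 65.8%, 63.1%, 61.0% and 60.8% of all loci. By this share the members were near the background in FP and FC, whereas their median there lay below that of all loci. As a share of its own EC level, the median member stood at 50.4% in EQ, 18.8% in FP and 16.0% in FC, against 107%, 87.9% and 88.4% for the median of all loci. Individual members spread widely around this, between 6.79% and 261% of the EC level in FP, and 12 of them were below 10% there, against 7.29% of all loci.

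**Figure D1:**
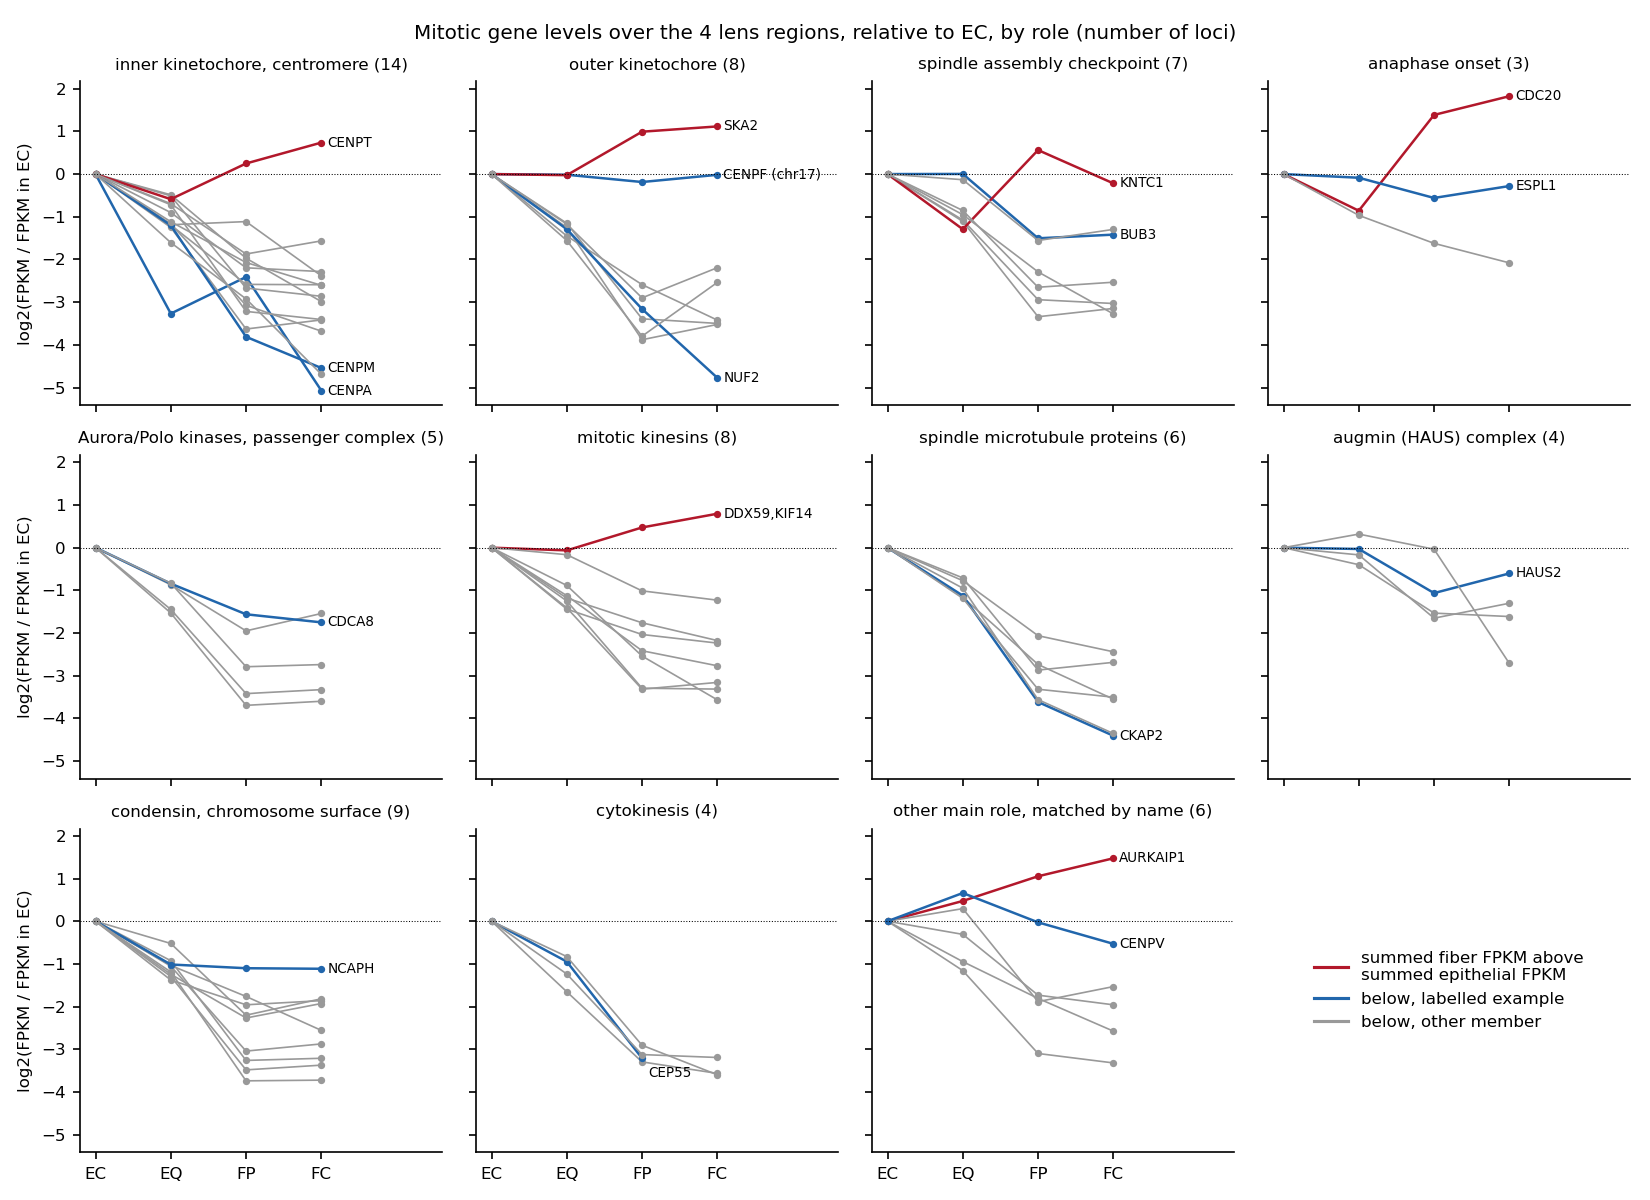
Log2 ratio of FPKM in each region to FPKM in EC (vertical axis) for the 74 mitotic loci over EC, EQ, FP and FC, in 1 panel per role, each line being 1 locus; CEP55 is listed at 0 in FC and its line ends at FP. Most lines descend from EC to FP and differ less from FP to FC, and the loci with a higher summed level in fibers than in epithelium are CENPT, SKA2, KNTC1, CDC20, the locus DDX59,KIF14 and AURKAIP1.

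Most members were lower both on entry into the cortical fibers and within the epithelium. A ratio of FP over EQ of 1/2 or less was found at 52 of 74 members (70.3%), against 22.1% of all loci, and a ratio of 2 or more at 3 members, against 17.1% of all loci. The median log2 ratio of FP over EQ was -1.48 for members and -0.17 for all loci, a difference of -1.32 that does not depend on how the regions are scaled to each other; it was -1.18 among loci with a mean FPKM of 1 or more and -0.83 with a pseudocount of 1. Within the epithelium, EQ over EC was 1/2 or less at 37 members (50%), against 12.6% of all loci, and 2 or more at 0 members, against 8.35% of all loci, with a median log2 ratio of -0.99 for members and 0.13 for all loci. That difference was -1.12, and it was -1.29 with the same filter and -0.88 with the pseudocount, so that which step is the larger depends on these choices. Between the fiber regions little differed, since FC over FP was 1/2 or less at 7 of 73 members (9.59%), against 6.8% of all loci, and 2 or more at 1 member, against 4.83%. The median log2 ratio of FC over FP was -0.08 for members and 0.06 for all loci, and with every region scaled to the same FPKM total these became 0.31 for members and 0.45 for all loci.

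Taking both fiber regions against both epithelial regions, the summed fiber FPKM was 1/2 or less of the summed epithelial FPKM at 62 members (83.8%), against 22.3% of all loci, and 2 or more times it at 3 members, against 15.5% of all loci. The median log2 ratio of fibers over epithelium was -2.15 for members, a 4.43-fold lower level, and -0.16 for all loci. Of the 74 members, 28 were lower 2-fold or more at both steps (EQ below EC, then FP below EQ), against 2.13% of all loci. A further 24 passed the fold downward only in FP over EQ, against 20.1% of all loci, 9 only in EQ over EC, against 9.95%, and 13 at neither step, against 67.8%. When the members were split at their median of mean FPKM, 4.04, the median log2 ratio of fibers over epithelium was -1.69 for the 37 at or above it and -2.46 for the 37 below it.

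**Figure D2:**
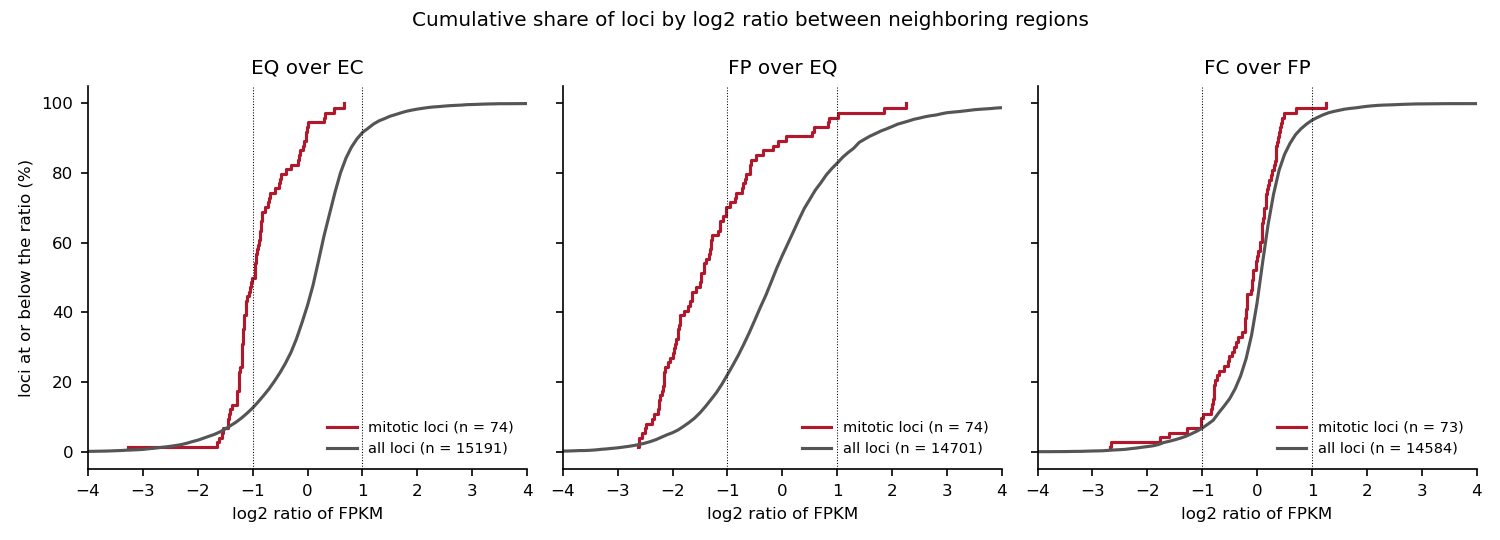
Cumulative share of loci (vertical axis, percent) at or below each log2 ratio of FPKM (horizontal axis) for EQ over EC, FP over EQ and FC over FP, with mitotic loci in red and all loci in gray; dotted lines mark a ratio of 1/2 and of 2. The red line lies left of the gray one in EQ over EC (medians -0.99 and 0.13) and FP over EQ (medians -1.48 and -0.17), and both run close together in FC over FP (medians -0.08 and 0.06).

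The intervals of the table are wide. The median distance from the FPKM to its bounds was 65.3% of the FPKM in EC, 63.7% of it in EQ, 78.8% in FP and 89.4% in central fibers, and the lower bound was 0 at 3, 6, 11 and 22 members in these regions. For FP against EQ, the FP interval lay wholly below that of EQ at 10 members (CKAP2, NCAPD3, the CENPF locus of chromosome 3, CENPW, CENPE, BUB1B, NUSAP1, DLGAP5, MKI67 and SMC2), against 1.89% of all loci, and wholly above it at 0 members, against 1.79% of all loci. The EQ interval lay wholly below that of EC at 0 members, against 0.513% of all loci. The authors' own tests, which were not repeated here, list ANLN, PLK1, KIF23, NDC80, INCENP and KIF4A among the genes significantly decreased from EC to EQ. From EQ to FP, their list of significantly decreased genes includes MKI67, SMC2, CKAP2, DLGAP5, CENPF and TPX2, the last with overlapping intervals here. Over the longer distance the intervals parted more often, with FP wholly below EC at 33 members, against 2.66% of all loci, and FC wholly below EC at 35 of 73, against 2.39% of all loci.

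The inner kinetochore, the protein layer on centromeric chromatin, had 14 loci. In EQ against EC 8 were lower 2-fold or more, against 12.6% of all loci, and in FP against EQ 10, against 22.1%. The group had a median log2 ratio of fibers over epithelium of -2.26. CENPA, the centromeric histone H3 variant, was listed at 13.3 FPKM in EC, 1.38 FPKM in EQ, 2.5 FPKM in FP and 0.395 FPKM in FC. Its EQ level was the lowest share of EC among all members, 10.4%, but the EC value lies above its own interval of 0.799 to 11.2 FPKM, and CENPA was the only member of which this was true. CENPM, a subunit of the constitutive centromere network with CENPH, CENPI and CENPK, had 16.6, 7.21, 1.18 and 0.711 FPKM in EC, EQ, FP and FC, and its FP over EQ ratio of 0.164 was the lowest of the inner kinetochore. The values of CENPH were 13.9, 6.17, 1.65 and 1.08 FPKM over the same regions, so that both subunits were near 1 FPKM in central fibers. CENPW, the histone-fold partner of CENPT, had 12.5, 7.57, 1.34 and 1.17 FPKM, and the FP interval of 0.241 to 2.41 FPKM did not reach that of EQ, 2.90 to 12.2 FPKM.

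CENPT itself, which anchors the NDC80 complex to the centromere (chromosome 11, 861023 to 877706, Galgal4 assembly), went the other way. It was listed at 5.81 FPKM in EC, 3.87 FPKM in EQ, 6.90 FPKM in FP and 9.69 FPKM in FC, with overlapping intervals in all regions, and the FP over EQ ratio of 1.79 stayed under the fold of 2. In FC its FPKM was thus above that of its partner CENPW, while in EC it was below. CENPK, CENPQ, CENPC1 (the gene now named CENPC, which binds CENPA nucleosomes), CENPN and CENPL had FP levels between 0.644 and 1.97 FPKM, against EC levels between 4.10 and 7.99 FPKM. CDCA2, which brings a phosphatase to chromatin at mitotic exit, differed from these in its second step, with 3.28, 1.44, 1.52 and 0.629 FPKM in EC, EQ, FP and FC. CENPP, with 4.57, 1.5, 0.602 and 0.177 FPKM, lies in a span of chromosome 12 that the table shares with ECM2, ASPN, OMD and OGN, its lower bound was 0 in all 4 regions, and its values are uncertain. CENPI and CENPO completed the group with 0.289 and 0.511 FPKM in FP, against 3.58 and 1.87 FPKM in EC.

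Of the outer kinetochore, the part that binds microtubules, 8 loci were measured. Of these, 6 were lower 2-fold or more both in EQ against EC and in FP against EQ, against 2.13% of all loci. The NDC80 complex is the main microtubule grip, and of its subunits NUF2 had 12.4, 5.08, 1.39 and 0.455 FPKM in EC, EQ, FP and FC. SPC25 had 8.92, 3.96, 1.2 and 1.95 FPKM over these regions, and NDC80 itself had 6.31, 2.31, 1.05 and 0.590 FPKM. In FP all 3 were thus at ratios between 0.274 and 0.454 to EQ, whereas from FP to FC NUF2 was at a ratio of 0.327 and SPC25 at 1.63. CENPE, the kinesin that carries chromosomes to the spindle equator, had 4.90, 2.06, 0.333 and 0.427 FPKM, and its FP over EQ ratio of 0.162 was the lowest of all 74 members. SKA3, a subunit of the complex that follows shrinking microtubule ends, had 3.35, 1.14, 0.241 and 0.577 FPKM, and was the member with an FC over FP ratio past 2 (2.39), at levels whose intervals reached 0 in both fiber regions.

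SKA2, a partner of SKA3 in that complex, was by name the most abundant member, with 131, 129, 261 and 284 FPKM in EC, EQ, FP and FC and a fibers over epithelium ratio of 2.1. Its intervals overlapped in all regions, with 89.4 to 479 FPKM in FC against 46.8 to 215 FPKM in EC. This locus (chromosome 19, 7188292 to 7195778) lies between TRIM37 and PRR11, where the RefSeq annotation of a later assembly lists the locus SKA2P1 in place of SKA2, so that its identity is uncertain. CENPF, a large kinetochore and nuclear matrix protein, names 2 loci that differed from each other. The CENPF locus on chromosome 3 had 5.47, 2.46, 0.522 and 0.484 FPKM, with non-overlapping intervals for FP, 0.156 to 0.890 FPKM, and EQ, 1.03 to 3.90 FPKM. The locus of that name on chromosome 17 was level at 3.09, 3.06, 2.71 and 3.05 FPKM. RefSeq places CENPF on chromosome 3 and lists CNTRL, a centriole protein gene, next to RAB14, the neighbor of the chromosome 17 locus.

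**Figure D3:**
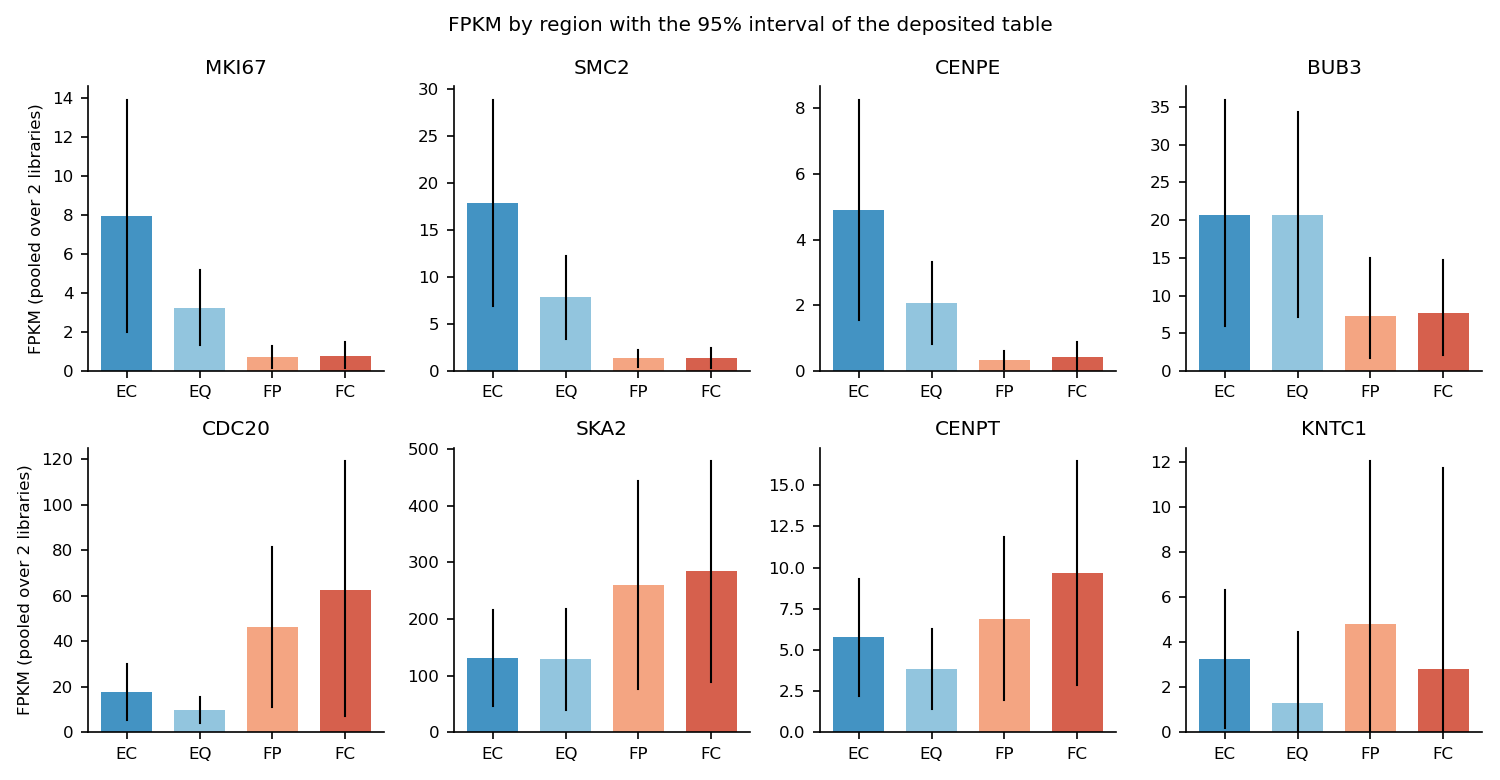
FPKM (vertical axis, pooled over 2 libraries, starting at 0) in EC, EQ, FP and FC for 8 mitotic loci, with lines for the 95% interval given in the deposited table. MKI67, SMC2 and CENPE are low in both fiber regions with FP intervals below those of EQ, BUB3 is at 20.7 FPKM in EQ and 20.6 FPKM in EC, and CDC20, SKA2 and CENPT are highest in FC with overlapping intervals, as are the intervals of KNTC1.

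The spindle assembly checkpoint, which delays anaphase until all kinetochores are attached, had 7 loci. In FP against EQ 6 were lower 2-fold or more, against 22.1% of all loci, and in EQ against EC 3, against 12.6%. MAD2L1, the checkpoint protein that inhibits CDC20, had 27.7, 15.3, 4.41 and 4.78 FPKM in EC, EQ, FP and FC. BUB1B, another inhibitor of CDC20, had 9.22, 4.28, 0.909 and 1.04 FPKM, and its FP interval of 0.269 to 1.52 FPKM lay below that of EQ, 1.79 to 6.76 FPKM. BUB1, the kinase that recruits other checkpoint proteins, had 8.77, 4.16, 1.14 and 1.07 FPKM, and TTK, the kinase upstream of it, had 3.94, 2.04, 0.806 and 0.407 FPKM. In these 4 genes EQ stood between 46.4% and 55.4% of EC. A pair of checkpoint genes did not share this first step.

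BUB3, a WD-repeat partner of BUB1 and BUB1B that also acts outside mitosis, had 20.6, 20.7, 7.28 and 7.72 FPKM in EC, EQ, FP and FC. ZWILCH, which belongs to the complex that loads dynein and MAD proteins on kinetochores, had 12.2, 11.1, 4.15 and 4.97 FPKM. For both, the FP over EQ ratio was under 1/2, at 0.352 for BUB3 and 0.373 for ZWILCH, and the FC level stayed near that of FP. KNTC1, the large subunit of the same complex as ZWILCH, was listed at 3.24, 1.32, 4.78 and 2.79 FPKM and had an FP over EQ ratio of 3.62, below that of CDC20 alone among members. Its intervals began at 0 in EQ, FP and FC and reached 12.0 FPKM in FP, and its span on chromosome 15 is shared in the table with VPS29, at 26.1, 43.9, 19.8 and 21.1 FPKM, so the KNTC1 values are uncertain.

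Anaphase onset was the only role in which none of the loci was lower 2-fold or more in FP than in EQ. With 3 loci, and 22.1% of all loci lower at this step, that count is not read as a result about the role. CDC20, the activator of the anaphase-promoting complex in mitosis (chromosome 8, 18577131 to 18582553), had 17.7 FPKM in EC, 9.76 FPKM in EQ, 46.2 FPKM in FP and 62.6 FPKM in FC. It was thus at a ratio of 0.552 in EQ over EC, as most members were, but at 4.74 in FP over EQ, the highest of all members, and at 3.97 in fibers over epithelium. The intervals were 11.2 to 81.3 FPKM in FP and 3.92 to 15.6 FPKM in EQ, which overlap. PTTG1, the securin that keeps separase inactive until anaphase, had 41.4, 21.2, 13.5 and 9.80 FPKM in EC, EQ, FP and FC. Its FP over EQ ratio was 0.635, but its fibers over epithelium ratio of 0.371 did pass the fold. ESPL1, the separase that cuts cohesin, varied little with 8.20, 7.73, 5.57 and 6.75 FPKM.

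Aurora and Polo kinases and the chromosomal passenger complex, which correct attachments and drive cytokinesis, had 5 loci. In FP against EQ 4 were lower 2-fold or more, against 22.1% of all loci, and in fibers against epithelium all 5, against 22.3%. PLK1, the main mitotic Polo kinase, had 22.7, 8.33, 2.12 and 2.27 FPKM in EC, EQ, FP and FC, and its summed fiber level was 7.07-fold lower. INCENP, the scaffold of the passenger complex, had 9.08, 3.14, 0.702 and 0.750 FPKM, in a span on chromosome 5 that it shares with an unnamed gene model. PLK4, which starts centriole duplication, had 3.48, 1.96, 0.504 and 0.522 FPKM. CDCA8 (borealin), another passenger subunit, kept a higher share of its level, with 69.9, 39.0, 23.7 and 20.8 FPKM, on an unplaced sequence. The locus named AURKA had 13.5, 7.37, 3.48 and 4.62 FPKM, and follows CSTF1 on chromosome 20, where RefSeq of the later assembly lists AURKB, so the labels of the 2 Aurora kinases differ between annotations.

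Mitotic kinesins, the motors that shape the spindle, had 8 loci. In EQ against EC 5 were lower 2-fold or more, against 12.6% of all loci, and in FP against EQ 4, against 22.1%. KIF4A, a chromosome arm motor, had 12.9, 4.86, 1.30 and 1.45 FPKM in EC, EQ, FP and FC. KIF15, which helps keep spindle poles apart, had 7.08, 2.98, 0.722 and 0.712 FPKM. Its FP over EQ ratio of 0.242 was the lowest of these 8 loci. KIF23, the motor of the centralspindlin complex, had 9.12, 3.36, 2.23 and 1.94 FPKM, with most of its difference within the epithelium. KIF11, the motor that separates the poles, showed the opposite order with 8.15, 7.27, 4.04 and 3.47 FPKM, passing the fold at neither step. KIF2C, a microtubule depolymerase, and KIF18A, which limits chromosome oscillation, had 0.968 and 0.25 FPKM in FP, against 3.28 and 1.45 FPKM in EC. KIF20A, at 7.45, 3.42, 1.40 and 1.09 FPKM, shares its span with SFXN1, which was at 31.9, 58.0, 184 and 205 FPKM. The lower bound of KIF20A was 0 in EQ, FP and FC, so its values are uncertain, though it is counted at both steps. KIF2C shares its own span with C1orf228. The merged locus DDX59,KIF14 had 5.73, 5.48, 7.95 and 9.93 FPKM, and the share of the RNA helicase gene DDX59 in it cannot be separated from that of the kinesin KIF14.

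The spindle microtubule proteins shared 1 direction, as all 6 were lower 2-fold or more in FP than in EQ, against 22.1% of all loci. The group's median log2 ratio of fibers over epithelium was -2.78. CKAP2, which stabilizes microtubules, had 17.3, 7.92, 1.41 and 0.814 FPKM in EC, EQ, FP and FC, an 11.3-fold lower summed level in fibers. DLGAP5, a spindle assembly factor, had 10.7, 5.52, 0.903 and 0.521 FPKM, and the summed level was 11.4-fold lower. NUSAP1, a microtubule bundling protein, had 14.1, 6.20, 1.42 and 1.24 FPKM, and in all 3 the FP interval lay below that of EQ. TPX2, the activator of Aurora A on the spindle, had 15.9, 9.74, 2.18 and 2.47 FPKM. PRC1, which bundles the midzone, had 15.3, 8.93, 3.66 and 2.82 FPKM, the smallest difference of the group, and ASPM, at the spindle poles, had 0.708 FPKM in FP, against 4.72 FPKM in EC.

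Cytokinesis genes had all 4 loci lower 2-fold or more in FP than in EQ, against 22.1% of all loci. They had a median log2 ratio of fibers over epithelium of -2.84. RACGAP1, the partner of KIF23 in centralspindlin, had 10.5, 4.45, 1.2 and 1.15 FPKM in EC, EQ, FP and FC. ANLN, an actin-binding organizer of the cleavage furrow, had 6.41, 2.04, 0.653 and 0.542 FPKM, with an EQ over EC ratio of 0.318 that only CENPA undercut among members with a mean FPKM of 1 or more. ECT2, which activates RhoA at the furrow, had 3.82, 2.15, 0.510 and 0.316 FPKM. CEP55, needed for the final cut between daughter cells, had 1.82, 0.944 and 0.197 FPKM in EC, EQ and FP and was the only member listed at 0 in a region, namely FC.

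Condensin subunits and MKI67, the Ki-67 protein that coats mitotic chromosomes, made up 9 loci, all highest in EC, against 27.4% of all loci above 0. In EQ against EC 7 were lower 2-fold or more, against 12.6% of all loci, and in FP against EQ 6, against 22.1%. SMC2, the ATPase common to both condensins, had 17.9, 7.83, 1.34 and 1.35 FPKM in EC, EQ, FP and FC, a 9.55-fold lower summed level in fibers, and its FP interval of 0.421 to 2.22 FPKM lay below that of EQ, 3.41 to 12.3 FPKM. Its dimer partner SMC4 was less different, with 11.3, 4.77, 2.34 and 2.96 FPKM. The FC over EC ratio was accordingly 0.0757 for SMC2 and 0.263 for SMC4. Of the condensin I subunits, NCAPD2 had 12.8, 8.93, 2.79 and 3.64 FPKM. NCAPG had 5.66, 2.73, 0.688 and 0.772 FPKM. NCAPH, the kleisin that closes the same ring, was listed as nearly level after the first step, with 10.4, 5.16, 4.85 and 4.81 FPKM. Its FP over EQ ratio was 0.941, so that the listed levels of these subunits did not follow the same profile. The EQ and FP intervals overlapped for NCAPD2, NCAPG and NCAPH alike, and the difference between subunits was not tested. In condensin II, NCAPD3 had 3.55, 1.87, 0.370 and 0.384 FPKM, while NCAPH2 had 8.48, 3.26, 2.18 and 2.33 FPKM and NCAPG2 had 1.68, 0.819, 0.495 and 0.285 FPKM. MKI67, the usual marker of cycling cells, had 7.93, 3.23, 0.709 and 0.766 FPKM, and the FP interval of 0.164 to 1.26 FPKM lay below that of EQ, 1.30 to 5.16 FPKM.

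Augmin genes differed less, at a median log2 ratio of fibers over epithelium of -1.19. This complex branches new microtubules off existing ones. Of its 4 loci, 0 were lower 2-fold or more in EQ than in EC, which is near the 12.6% of all loci. In FP against EQ 3 were, against 22.1% of all loci. HAUS2 had 24.1, 23.5, 11.5 and 15.8 FPKM in EC, EQ, FP and FC, HAUS6 had 5.30, 4.02, 1.83 and 1.73 FPKM, and HAUS8 had 4.54, 4.04, 1.44 and 1.84 FPKM. The locus named HAUS3 was the least abundant member, at 0.313, 0.391, 0.306 and 0.0479 FPKM with lower bounds of 0. It shares a span with DNAH1 on chromosome 12 and is placed on chromosome 4 by RefSeq, so its values are uncertain. HAUS3 stays in the counts and medians, except where members sharing a span were left out. The log2 ratios of fibers over epithelium of HAUS2, HAUS6 and HAUS8 were -0.80, -1.39 and -1.38.

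A last group of 6 loci was matched by symbol although the main role of the proteins lies elsewhere. AURKAIP1, named for binding Aurora A but known as a protein of the mitochondrial ribosome, had 19.6, 27.2, 40.6 and 54.4 FPKM in EC, EQ, FP and FC, higher in each region than in the one before, with a fibers over epithelium ratio of 2.03. CENPV, a microtubule-associated protein, was highest in EQ with 14.7, 23.2, 14.4 and 10.2 FPKM. CDCA7L, a MYC-interacting nuclear protein, was highest in EQ too with 23.9, 29.4, 6.49 and 8.28 FPKM, and its FP over EQ ratio was 0.221. Its relative CDCA7 followed the mitotic genes more closely, with 9.68, 4.34, 1.13 and 0.970 FPKM. CDCA4 had 8.43, 6.81, 2.54 and 2.17 FPKM, and CENPJ, a centriole protein, had 1.02, 0.528, 0.290 and 0.171 FPKM. Without these 6 loci 49 of 68 were lower 2-fold or more in FP than in EQ, against 22.1% of all loci. In fibers against epithelium 58 of 68 were, against 22.3%.

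In all, 6 members had a higher summed level in fibers than in epithelium, and 3 of them, CDC20, SKA2 and AURKAIP1, passed the fold of 2. The direction of each of the 3 was the same under every scaling of the regions that was tried. This could hardly have come out otherwise, as every scaling moved the median log2 ratio of all loci upward. That median went from -0.16 to -0.04, 0.07 and 0.83. Scaling to the total FPKM brought the number past the fold to 6 of 74, as it brought the share of all loci to 43.7%. The other three, CENPT, KNTC1 and DDX59,KIF14, had ratios of 1.71, 1.66 and 1.60, and KNTC1 and DDX59,KIF14 share their spans with other genes. A member called lower 2-fold or more by the unscaled ratio changed sign in 0 cases under the scalings. For the steps between neighboring regions this was fixed in advance, as the scalings moved each step by less than a factor of 2.

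Genes that work with the mitotic loci were taken from separate lists of symbols for comparison, and they did not all share this profile. Of 12 genes of mitotic entry and exit, 8 were lower 2-fold or more in FP than in EQ, against 22.1% of all loci. Their median log2 ratio of fibers over epithelium was -2.12. UBE2C, the ubiquitin-conjugating enzyme of the anaphase-promoting complex, had 78.9, 17.8, 4.76 and 2.93 FPKM in EC, EQ, FP and FC. WEE1, which restrains CDK1, was highest in EQ, with 17.4, 43.7, 4.69 and 6.17 FPKM. Its EQ over EC ratio was 2.52, with overlapping intervals in these 2 regions. MASTL, the Greatwall kinase that protects mitotic phosphorylation, was listed higher in fibers, with 2.08, 1.04, 7.48 and 9.42 FPKM and an FP over EQ ratio of 7.20. Its intervals overlapped in all regions, with 0.192 to 1.92 FPKM in EQ and 0.767 to 15.3 FPKM in FP. CDK1 itself is listed under its older name CDC2, looked up after its values had been seen, at 72.9, 31.7, 4.66 and 6.62 FPKM, and MLF1IP and ITGB3BP, older names of the inner kinetochore genes CENPU and CENPR, looked up in the same way, had 0.565 and 0.891 FPKM in FP, against 2.82 and 3.07 FPKM in EC.

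Of 9 further kinetochore and centromere genes, 8 had a ratio of FP over EQ. It was 1/2 or less at 3 of these 8, against 22.1% of all loci. DSN1, of the MIS12 complex, had 19.8, 9.06, 8.24 and 10.01 FPKM in EC, EQ, FP and FC, BIRC5 (survivin), of the passenger complex, had 20.5, 9.34, 4.02 and 2.37 FPKM, and MIS12 was listed at 7.07, 3.82, 0 and 0.860 FPKM. Among 11 spindle partners 7 were lower 2-fold or more in FP than in EQ, against 22.1% of all loci. Of these, KPNA2, an importin that holds spindle factors, had 46.8, 22.1, 4.82 and 3.75 FPKM. NUMA1, which acts at the poles and in the interphase nucleus, had 23.5, 17, 11.5 and 13.8 FPKM. Its FP over EQ ratio of 0.675 did not pass the fold. Cohesin holds sister chromatids together and also shapes interphase chromatin. It had 3 of 9 genes lower 2-fold or more in FP than in EQ, against 22.1% of all loci. Its median log2 ratio of fibers over epithelium was -0.57. RAD21, its cleaved subunit, had 38.3, 37.9, 13.3 and 14.5 FPKM, and WAPAL, which releases the ring, had 14.3, 19, 20.9 and 18.6 FPKM. The anaphase-promoting complex had 1 of 13 genes lower 2-fold or more in FP than in EQ, against 22.1% of all loci. Its median log2 ratio of fibers over epithelium was 0.19. Its subunits ANAPC15, with 30.9, 32.8, 46.8 and 57.9 FPKM, and ANAPC16, with 23.2, 26.2, 33.0 and 45.7 FPKM, were highest in FC, as was their activator CDC20, whereas ANAPC5 was lower in fibers, with 7.94, 7.79, 3.37 and 3.14 FPKM.

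Of the DNA replication genes, 21 of 33 were lower 2-fold or more in FP than in EQ, against 22.1% of all loci. In EQ against EC 9 of 33 were, against 12.6%, and in fibers against epithelium 21 of 33, against 22.3%. Their median log2 ratio of fibers over epithelium was -1.42. PCNA, the sliding clamp, had 105, 76.4, 34.1 and 46.9 FPKM, and RFC5, a clamp loader subunit, had 38.7, 41.7, 32.8 and 49.3 FPKM in EC, EQ, FP and FC. RFC2, another clamp loader subunit, was listed higher in fibers, with 11, 9.55, 31.2 and 33.5 FPKM. CDC6, a licensing factor, was lowest in EQ with 2.93, 0.721, 1.97 and 1.28 FPKM. For both genes the intervals overlapped in all regions. ORC6 and POLA2 passed the fold upward only from FP to FC, with FC over FP ratios of 2.77 and 2.42 and overlapping intervals. The medians of these lists stand here as descriptions and were not tested against those of the mitotic loci.

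**Figure D4:**
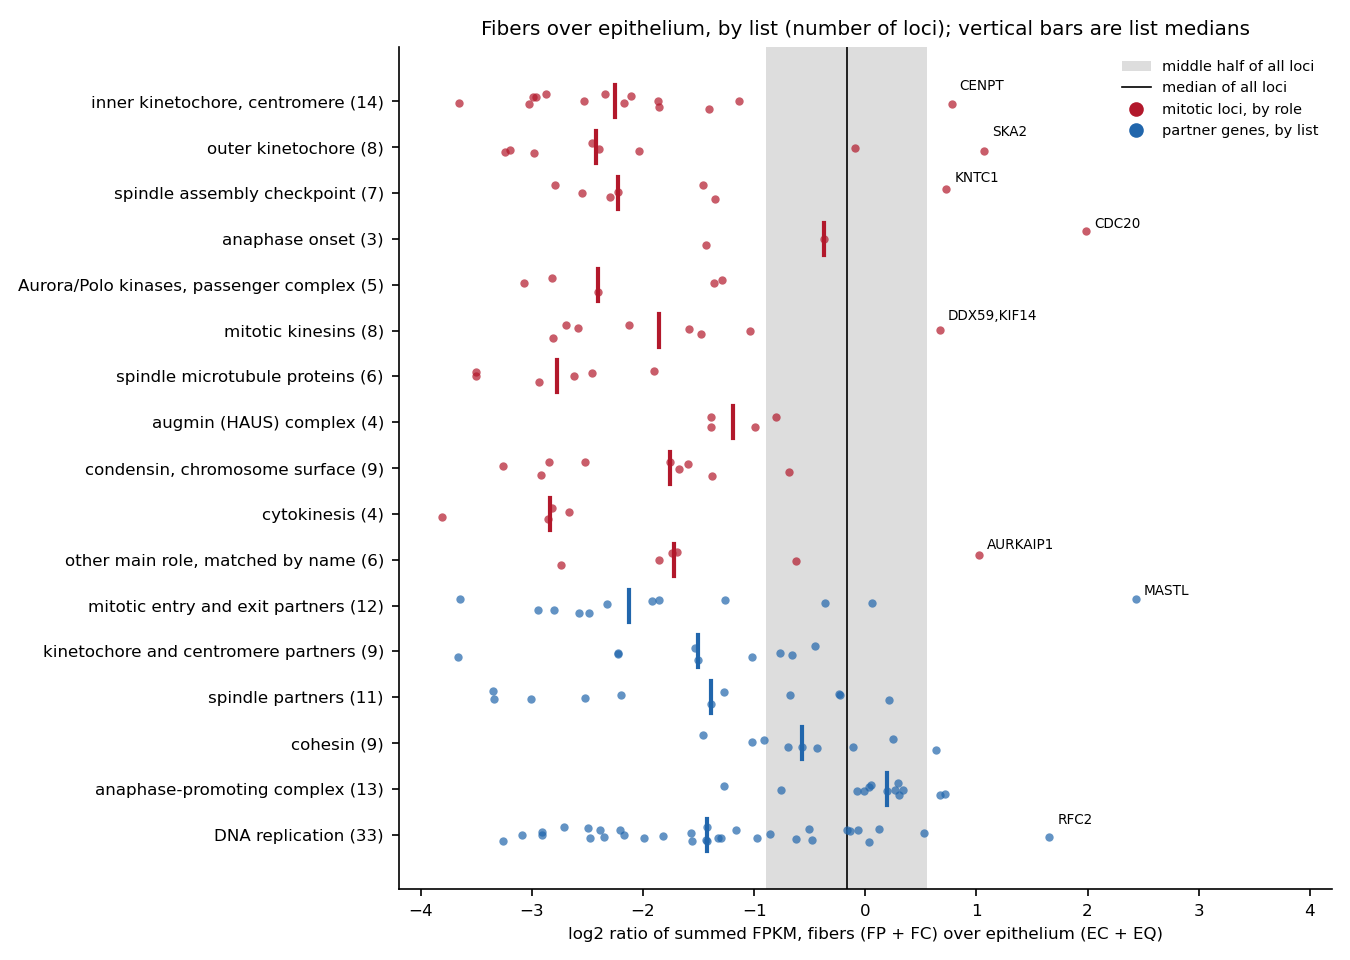
Log2 ratio of summed FPKM in fibers (FP and FC) over epithelium (EC and EQ) on the horizontal axis for each mitotic locus by role (red) and for each partner gene by list (blue), with vertical bars for list medians, a black line for the median of all loci (-0.16) and a gray band from their 25th to their 75th percentile. Role medians lie between -2.84 for cytokinesis and -0.37 for anaphase onset, and of the partner lists cohesin (-0.57) and the anaphase-promoting complex (0.19) lie inside the band.

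The identity of the regions was read from marker genes. Summed over 9 loci, lens fiber markers, led by the crystallin CRYBB1 and the beaded filament gene CP49, were at 1837, 8953, 60376 and 90154 FPKM in EC, EQ, FP and FC, whereas 4 epithelial markers, chiefly SFRP1 and PDGFRA, summed to 133, 204, 63.8 and 67.8 FPKM, of which FOXE3, a defining factor of mammalian lens epithelium, had 0.318, 0.159, 0.197 and 0.735 FPKM. Some markers of cells other than lens were also highest in EC. Red blood cell markers, chiefly the globins HBAA and HBAD, summed to 757, 127, 164 and 248 FPKM over 5 loci, 2 of which were at 0 in EC, EQ and FP. Of the retinal markers, the photoreceptor factor CRX was at 0.293 FPKM in EQ, against 5.08 FPKM in EC. The red blood cell sum and CRX move with the lower level of the 37 mitotic loci in EQ than in EC, and their part in it was not tested. Markers of pigmented epithelium (7 loci, led by MITF and PMEL) summed to 8.03, 5.60, 6.21 and 8.18 FPKM in EC, EQ, FP and FC. Those of vessel endothelium (5 loci, led by TIE1 and VWF) summed to 4.03, 2.48, 3.87 and 2.54 FPKM. Mesenchyme and cornea markers (5 loci, led by KERA and DCN) summed to 26.0, 20.3, 17.4 and 16.0 FPKM, with KERA highest in EC and DCN in FP. All 3 sums were lower in EQ than in EC, but the loci of each list did not move together. From EC to EQ, MITF went from 1.66 to 2.94 FPKM, KDR from 0.943 to 1.43 FPKM and DCN from 1.03 to 2.61 FPKM. In the same lists PMEL went from 2.19 to 0.755 FPKM, VWF from 1.72 to 0.197 FPKM and COL1A2 from 8.41 to 2.74 FPKM. The part of these cell types in the lower mitotic level of EQ was not tested either.

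The 74 loci lay on 23 numbered chromosomes, on the Z chromosome with 4 loci and on 3 unplaced sequences, with at most 7 on any chromosome (4 and 5). Of the 74, 7 share their span in the table with another gene. Without these 49 of 67 were lower 2-fold or more in FP than in EQ, against 22.1% of all loci. In fibers against epithelium 58 of 67 were, against 22.3%.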

How the data were processed

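The authors made directional mRNA libraries from 2 independent pools of 100 lenses per region, placed reads on Galgal4 by TopHat, and estimated levels with cufflinks and cuffdiff 2.1.1. The first deposited table gives the authors' FPKM per locus and region, pooled over both libraries and scaled between them by cuffdiff, with 95% bounds. A second table of the authors' pairwise comparisons (log2 fold changes, test statistics, p-values and q-values) was not used. Values per library were not analysed here, so there is no n, no SD and no test. No read counts per locus are given, and the authors' text states depth only as an approximate number of filtered reads per region. The bounds were whole multiples of 1 step at 59.4% of 15089 loci (tolerance 0.01), but at only 2.52% of those loci were all 4 FPKM values. All columns of regional values were mapped.

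Ratios were taken as in the study's methods, the later region over the earlier one or FP plus FC over EC plus EQ. The fold was 2, nothing was added to the FPKM, and no ratio was taken where either side was at 0. A sum needed only to be above 0, so CEP55, at 0 in FC, and MIS12, at 0 in FP, keep a fibers over epithelium ratio. "Lower 2-fold or more" stands for a ratio of 1/2 or less. Counts over all members, by role and over partner lists stand beside the same share over all loci, and counts by role or list are descriptions. A second rule asked whether the 95% intervals of 2 regions overlap. Computation used Python 3.11.15 with pandas 2.3.3 and numpy 2.4.6, figures matplotlib 3.10.9, and the ratio code was tested on simulated data. The alternatives were a pseudocount of 1 or 0.1, a filter at a mean FPKM of 1, 3 scalings between regions, folds of 1.5 and 3, the interval rule, and subsets of loci, of which the one without members sharing a span was added after the data had been seen.

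Members and lists were chosen with earlier results of these data known. Any member may be named; values in all regions are given at least for the most abundant 4 of each role, for the extremes of FP over EQ in each role and of EQ over EC, for members with a ratio of 2 or more and for those at 0. Partner genes shown are the most abundant 2 per list and those past the fold against their list's median, and markers are given as sums with the ones of highest FPKM in any region named. Gene names are those of the table. Of the members, 71 matched RefSeq (assembly GRCg7b) by symbol or synonym; as that is not the build of the table, it served for names and neighbors only, and coordinates are those of the table. A planned search of promoters for motifs was not run, as promoter sequence was not used here. Of the retinal list, results other than CRX are not reported here.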

Additional observations from a re-analysis of the deposited data

How the results depend on the processing

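Under no setting tried did a called member or the median of EQ over EC, FP over EQ or fibers over epithelium change sign. This was largely fixed in advance. A pseudocount keeps the order of 2 values, and the scalings moved each step by less than a factor of 2. The locus subsets and the filter at a mean FPKM of 1 left every count past the fold of 2 within 1.5 times. Here lower and higher mean past the fold, which is 2 unless another fold or rule is named. With that filter 50 of 69 members were lower in FP than in EQ, against 25.3% of loci. Members highest in EQ numbered 2 without those of another main role (4 with them). Members highest in FP numbered 0 without those sharing a span (1 with them). With a pseudocount of 1, 21 members were lower in EQ than in EC, against 5.7% of loci, and 34 in FP than in EQ, against 14.2%. In FC against FP, 1 was lower and 0 were higher, against 1.85% and 2.19%. The medians were then -0.82 (EQ over EC), -0.93 (FP over EQ) and -1.41 (fibers over epithelium). With a pseudocount of 0.1, 0 were higher in FC than in FP, against 6.4% of loci. Scaling to the median ratio gave medians of -1.26 for EQ over EC and -1.17 for FP over EQ. It put 5 members higher in FP than in EQ, against 23.1% of loci. Scaling to the total without the 3 highest loci gave -1.14 for FP over EQ, again with 5 higher, against 23.8% of loci. Scaling to the total moves the median of all loci for FP over EQ to 0.62. It puts 7.46% of loci lower and 36.3% higher in FP than in EQ (22.1% and 17.1% unscaled). Members then numbered 30 lower and 7 higher in FP than in EQ (median -0.70). In FC against FP, 4 were lower and 2 higher (median 0.31), against 3.98% and 11.1% of loci. In fibers against epithelium, 39 were lower and 6 higher (median -1.18), against 6.14% and 43.7% of loci. At a fold of 1.5, 56 members were lower and 1 higher in EQ than in EC, against 20.8% and 20.7% of loci. In FP against EQ, 5 were higher, against 25.3% of loci. In FC against FP, 18 were lower and 2 higher, against 13.5% and 11.9%. In fibers against epithelium, 6 were higher, against 24%. At a fold of 3, 3 of 74 members were lower in EQ than in EC, against 5.81% of loci, so this step did not exceed the background. In FP against EQ, 34 were lower, against 9.82% of loci. In FC against FP, 4 were lower and 0 higher, against 3.07% and 1.66%. In fibers against epithelium, 1 was higher, against 8.74%. By non-overlapping intervals, 0 members were lower in EQ than in EC, against 0.513% of loci. In FP against EQ, 10 were lower and 0 higher, against 1.89% and 1.79%. In FC against FP, 0 were lower or higher. The share of all loci was not computed for that step, so nothing is read from its count.

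No paired analysis was possible because the table holds 1 pooled value per region, and for the same reason libraries could not be left out one at a time; the interval rule could not be run on the summed fiber and epithelial values. The lower bound is 0 for 22 members in FC. The moves under scaling to the total lie in its construction, as total FPKM differs between regions (5979420, 5908470, 3429210 and 2624540 in EC, EQ, FP and FC). The paper states that delta-crystallin, fiber preferred in a separate run, was omitted from its cufflinks values for exceeding the default limit of mapped reads. By that statement these totals lack this transcript. Scaling to them gave 30 members lower and 7 higher in FP than in EQ, against 52 and 3 unscaled. The effect of the omission on these counts was not tested.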
